A study of Mus musculus with 18 samples.

Results

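The genes described here are 10 immediate early and stress response genes measured in mouse knee cartilage after rupture of the anterior cruciate ligament (ACL): Fos, Fosb, Fosl1, Fosl2, Jun, Junb, Jund, Egr1, Atf3 and Ier3. They were listed by symbol and found in the deposited tables through the GENCODE annotation, which placed all 10 among 49184 annotated genes. All 10 had enough counts to be tested. Libraries of total RNA without ribosomal RNA were made from pooled femoral condyle cartilage caps of male C57Bl/6J mice aged 12 weeks. The injured group carried 1 mechanical load that ruptured the ligament of the right knee, the unloaded left knee of the same mice was the contralateral control, and naïve mice had no injury. There were 18 libraries: 6 naïve, 3 contralateral and 3 injured at day 1, and 3 contralateral and 3 injured at day 7. Naïve libraries carry a day 7 label. Libraries are named by number, and the numbers do not pair knees. Cartilage was pooled from 4 mice per library by the series' text, whereas the study's methods give fewer mice for naïve and day 1 libraries and let naïve libraries share mice, so that p-values measure only the spread between libraries. Totals of estimated counts ranged from 16074762 to 41794005 per library, with a median of 25465706.

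Immediate early genes are transcribed within minutes of a stimulus from factors that the cell already holds, and their RNAs are short-lived. The protein products of the Fos and Jun genes pair through leucine zippers to form the transcription factor activator protein 1 (AP-1), while Atf3 encodes a related zipper protein that is induced by many forms of stress. Egr1 encodes a zinc finger factor of the same early wave, and Ier3 encodes a small protein linked to cell survival. In cartilage, AP-1 is known for its role in the induction of collagenases and other matrix proteases by cytokines and by load.

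In the GENCODE annotation of GRCm38, Fos lies at chr12:85473890-85477273 on the forward strand, Fosl1 at chr19:5447547-5455946, Fosl2 at chr5:32135801-32157842, Jund at chr8:70698949-70700616 and Ier3 at chr17:35821684-35822923, all on the same strand. On the reverse strand lie Fosb at chr7:19302696-19310051, Jun at chr4:95049034-95052222, Junb at chr8:84974484-84978718 and Atf3 at chr1:191170296-191218039. The genes were compact, with a median span of 4698.5 bases, whereas the median span of the 16137 protein-coding genes tested was 22775 bases. Jun, Junb and Jund have a leading transcript of 1 exon, which made 30.0% of the list single-exon genes, against 3.71% of protein-coding genes tested. To show what stands before 3 of these genes, stretches of promoter are printed below from RefSeq (assembly GRCm38.p6), 5′ to 3′ on the strand of the gene. Capitals mark TGACG, the core of the cyclic AMP response element that CREB and ATF proteins bind, and GCGNGGGCG, the site of Egr factors. Fos lies on the forward strand and the stretch is chr12:85473750-85473869. Fosb lies on the reverse strand (chr7:19310076-19310145), as does Junb (chr8:84978809-84978878).
Fos: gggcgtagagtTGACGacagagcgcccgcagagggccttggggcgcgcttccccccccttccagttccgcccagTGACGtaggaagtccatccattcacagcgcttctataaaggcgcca
Fosb: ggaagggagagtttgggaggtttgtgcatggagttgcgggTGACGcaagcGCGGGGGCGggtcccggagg
Junb: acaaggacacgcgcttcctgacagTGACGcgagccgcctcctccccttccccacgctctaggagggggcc
Promoter entries of 250 bases before and 50 bases after the start were given for 8 of the 10 genes, and both strands were searched. Fosl1 and Egr1 had no entry, and sites further upstream were not searched, so that a motif without a match may lie outside these windows. TGACG was present in 4 of the 8 (Fos, Fosb, Junb and Atf3) and in 20.8% of all 32851 promoters. In Fos it stood 129 and 66 bases before the start, in Fosb 60 bases and in Junb 106 bases, without overlap with another motif searched. GCGNGGGCG was present in Fosb and Fosl2 and in 5.55% of all promoters. The kappaB box matched in Fos, Fosb, Fosl2 and Ier3 and in 8.46% of all promoters. The AP-1 site TGANTCA (7.81% of all promoters), the STAT site TTCNNNGAA (8.30%) and the CArG box of serum response factor (1.63%) had no match in the 8 windows. These matches describe letters and do not show binding.

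Levels of different genes were compared in TPM, which scales reads by transcript length and by library. In naïve cartilage Jund was the most abundant, at 25.7 ± 1.92 TPM (SD, n = 6), and no library of another gene on the list reached its range. Fosl2 followed at 12.8 ± 1.72 TPM and Junb at 9.38 ± 3.80 TPM, whose ranges overlapped. Jun (5.54 ± 0.844 TPM), Egr1 (4.65 ± 2.10 TPM), Fos (4.59 ± 1.54 TPM) and Ier3 (3.67 ± 1.30 TPM) had levels whose ranges overlapped from one to the next. Atf3 stood at 1.74 ± 0.361 TPM and Fosb at 1.15 ± 0.354 TPM. Fosl1 was near the limit of detection, at 0.0828 ± 0.154 TPM. Jund, Fosl2 and Junb held the same first ranks, and Atf3, Fosb and Fosl1 the same last ranks, in all 5 groups, while the order of the others changed between groups. Ranked among all genes with a TPM above 0, the mean of Jund over the 18 libraries was at percentile 96.5, that of Fosl2 at 92.3 and that of Fosl1 at 44.1.

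The make-up of the subunit mRNAs was therefore led by Fosl2 and Jund. Within a library these shares do not depend on how libraries are scaled. Fosl2 made up 59.7% to 82.2% of the summed TPM of the 4 Fos genes in the 18 libraries (median 71.3%). Fos itself made up 12.98% to 29.9% and Fosb 2.11% to 14.6%. Among the Jun genes, Jund held 47.8% to 81.7% (median 64.8%) and Junb 10.6% to 40.2%. Fosl2 held 69.2% ± 4.81 in naïve libraries (n = 6) and 68.6% ± 2.47 in day 7 injured libraries (n = 3), and Jund held 63.7% ± 6.88 and 67.4% ± 3.39, and the ranges of both overlapped between these groups. The share of Fosb was 6.21% ± 1.46 in naïve libraries and 9.36% ± 5.29 in day 7 injured libraries, with overlapping ranges.

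**Figure D1:**
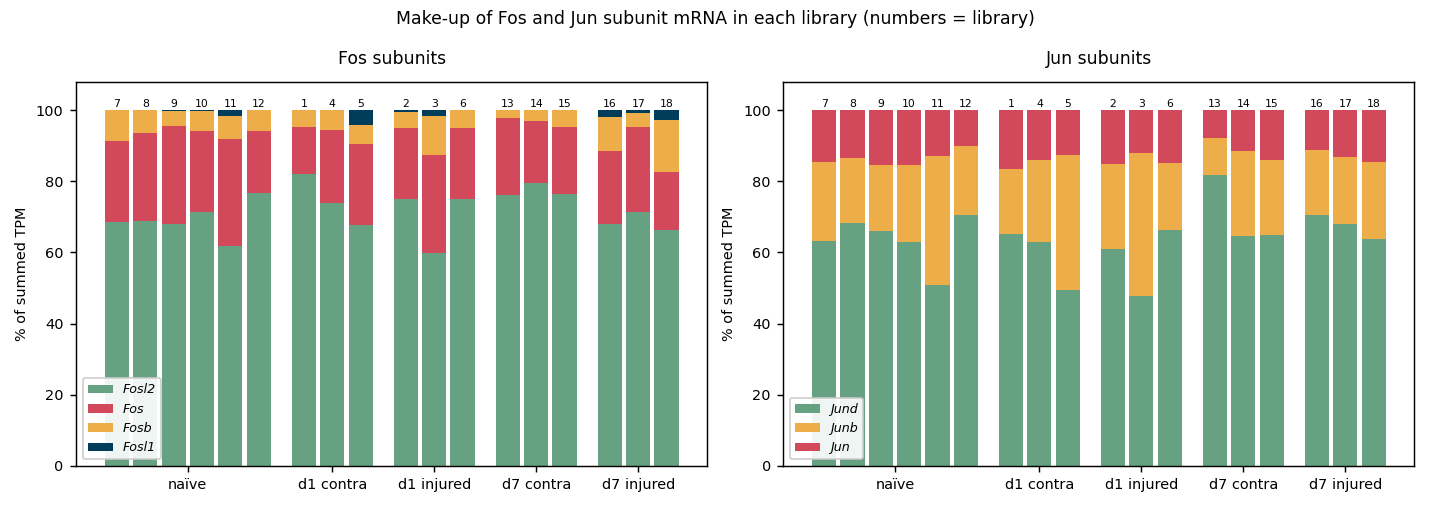
Share of each gene in the summed TPM of the 4 Fos genes (left) and the 3 Jun genes (right), in percent on the vertical axis, with 1 stacked bar per library, its library number above it and the 5 groups on the horizontal axis. Fosl2 and Jund fill the largest part of every bar, and the share of Junb is widest in naïve library 11, day 1 contralateral library 5 and day 1 injured library 3.

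Changes between groups were read from counts scaled to library size (CPM, normalised over the 18 libraries), and tested with edgeR on all genes. Calls needed a Benjamini-Hochberg FDR of 0.05 or less together with a change of 1.5-fold or more. At day 7, 6 of the 10 genes were called higher in injured than in naïve cartilage and none was called lower, whereas 10.4% of all 21129 genes tested were called higher and 6.11% lower. The called genes were Fosb, Fosl2, Jun, Jund, Atf3 and Ier3. The 10 genes were chosen with earlier results of these data known, so these shares describe the list and do not test it. Injured libraries lay entirely above naïve ones in CPM for 5 of the 10 genes and for 17.4% of all genes tested. In TPM the ranges of Jund and Atf3 stayed apart, as injured libraries did above naïve ones for 4.61% of all genes tested, while those of Fosl2, Jun and Ier3 overlapped. The median log2 change of the 10 was 0.97, beside −0.04 for all genes tested. In these bulk libraries, fewer cells of a type and less RNA per cell cannot be told apart. Leaving out 1 library at a time gave between 4 called genes (without injured library 18) and 8 (without naïve library 11). All 10 fitted changes were above 0 on the CPM scale, and 9 of the 10 ratios of mean TPM were, Egr1 being the exception, while the median gene differed by log2 −0.38 in TPM and by −0.06 in CPM.

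Atf3 encodes the stress-induced zipper protein. Its lowest, median and highest naïve levels were 4.28, 5.96 and 8.54 CPM. The day 7 injured libraries 16, 17 and 18 had 14.03, 13.2 and 19.6 CPM, so that all 3 lay above every naïve library. The fitted change was 2.62-fold (log2 1.39, SE 0.20, FDR = 8.33e-05).

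Of the called Fos subunits, Fosl2 rose more evenly than Fosb. Naïve libraries ranged from 130 to 163 CPM with a median of 143.2 CPM, and the injured libraries 16, 17 and 18 had 242, 241 and 343 CPM. Groups did not overlap, and the change was 1.92-fold (log2 0.94, SE 0.13, FDR = 7.07e-05). Fosb, which is often made as a truncated and stable form after repeated stimulation, was more variable. Its naïve levels were 4.35, 5.77 and 8.74 CPM at the lowest, median and highest, and injured libraries had 15.03, 6.59 and 32.4 CPM. Library 17 lay within the naïve range. The fitted change of Fosb was 3.04-fold (log2 1.60, SE 0.44, FDR = 0.0127), and without library 18 it was log2 0.87 with FDR = 0.185, which ends the call.

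Fos was not called, at log2 0.55 (SE 0.31, FDR = 0.198). Naïve libraries had 8.52 CPM at the lowest, 13.9 CPM at the median and 20.4 CPM at the highest, and injured libraries had 18.6, 19.3 and 22.7 CPM. Naïve library 11, the highest, lay inside the injured range. Between 10.2% and 53.8% of the TPM of Fos in a library stood on its 3 transcripts without a coding annotation (median 24.0%), and no call of Fos changed when only coding transcripts were summed.

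Fosl1, which is usually induced later than Fos through ERK signalling, was read from very few counts. The 6 naïve libraries held 0, 0, 3, 6, 31 and 0 rounded counts in the order of their numbers, and day 7 injured libraries held 7, 11 and 59. The highest naïve library, 11, exceeded the injured libraries 16 and 17 in both counts and CPM. Fosl1 was not called (log2 2.22, SE 1.18, FDR = 0.171), and it was called at log2 4.05 with FDR = 0.0284 without naïve library 11.

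All 3 Jun genes had positive fitted changes and 2 were called. Jund is the broadly expressed subunit that responds least to growth signals. Its naïve libraries had 65.2, 74.2 and 94.7 CPM at the lowest, median and highest, and injured libraries had 156, 138 and 161 CPM. These ranges lay well apart, with a change of 2.01-fold (log2 1.01, SE 0.11, FDR = 7.29e-06). Jun, the main partner of Fos, had 24.3, 33.8 and 38.3 CPM at the lowest, median and highest in naïve libraries and 50.4, 54.4 and 74.4 CPM in injured libraries. The increase was 1.83-fold (log2 0.87, SE 0.14, FDR = 0.000227). Junb, which can restrain Jun, had naïve levels of 21.9, 26.4 and 49.6 CPM and injured levels of 43.9, 41.6 and 59.6 CPM. It was not called (log2 0.72, SE 0.34, FDR = 0.123), although it was without naïve library 11 (log2 0.94, FDR = 0.0386), the only naïve library within the injured range.

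Ier3 and Egr1 differed from each other. For Ier3, naïve levels were 5.24, 6.32 and 10.9 CPM at the lowest, median and highest, and the injured libraries had 15.4, 11.8 and 18.1 CPM, all above the naïve range. Its change was 2.24-fold (log2 1.16, SE 0.37, FDR = 0.0264), a call that was lost without naïve library 7 (FDR = 0.0515), injured library 16 (FDR = 0.0658) or injured library 18 (FDR = 0.112). Egr1 had 16.2, 25.0 and 49.1 CPM in naïve libraries at the lowest, median and highest and 23.9, 20.1 and 42.0 CPM in injured libraries. Its groups overlapped throughout, with a fitted change of log2 0.05 and a 95% interval from −0.59 to 0.70.

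**Figure D2:**
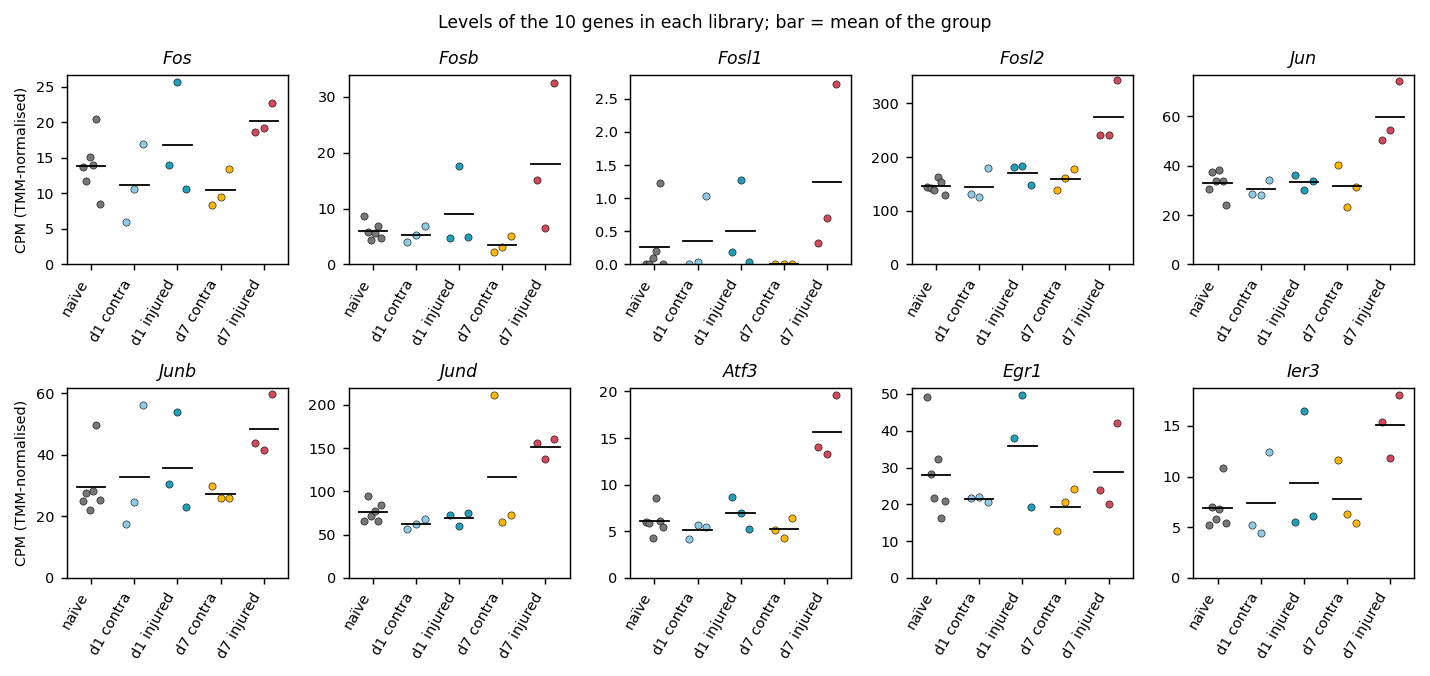
Level of each of the 10 genes in CPM (vertical axes, each from 0) in the 18 libraries, by group on the horizontal axis, with 1 point per library and a bar at the group mean. Day 7 injured libraries lie above all naïve libraries for Fosl2, Jun, Jund, Atf3 and Ier3, while those of Egr1 lie among them.

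Both knees of the injured mice were compared next, to set the injured joint against its own control. At day 7, 4 of the 10 genes were called higher in injured than in contralateral cartilage and none lower, whereas 9.33% of 21262 genes tested were called higher and 3.23% lower. Fosb rose by log2 2.34 (SE 0.55, FDR = 0.00569), Atf3 by 1.57 (SE 0.25, FDR = 0.000191), Jun by 0.92 (SE 0.19, FDR = 0.00252) and Fosl2 by 0.80 (SE 0.16, FDR = 0.00161). Contralateral libraries 13, 14 and 15 had 2.26, 3.12 and 5.07 CPM of Fosb, below all injured libraries. Without injured library 18 the change of Fosb was log2 1.61 with FDR = 0.0596. This comparison and that with naïve libraries share the 3 injured libraries and are not independent.

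The other 6 genes were not called against the contralateral knee. Fos, at 8.34, 9.54 and 13.4 CPM in contralateral libraries, lay below all injured libraries, with log2 0.94 (SE 0.36, FDR = 0.0807) by edgeR and an adjusted p of 0.0442 by DESeq2, which called it. Junb (log2 0.83, FDR = 0.144) and Ier3 (log2 0.98, FDR = 0.137) also had groups that did not overlap in CPM. Fosl1 had 0 counts in each contralateral library, so that at a floor of 3 counts per library the mean of the injured libraries was at least 7.98-fold higher (FDR = 0.0693 by edgeR, adjusted p = 0.0268 by DESeq2, with all libraries). Without injured library 18 this bound was 3.25-fold. The 3 contralateral libraries differed for Jund in CPM, with 212 CPM in library 13 and 64.4 and 72.7 CPM in libraries 14 and 15. On that scale library 13 exceeded every injured library. In TPM the 3 contralateral libraries were close, at 27.1 ± 1.01 TPM (SD, n = 3), with library 13 at 27.5 TPM. Library 13 still stood apart in make-up, as Jund held 81.7% of its Jun gene TPM, against 64.6% and 65.0% in libraries 14 and 15. Jun had 2.59 TPM in library 13 (4.95 and 5.56 in the others) and Junb 3.58 TPM (10.3 and 8.46). For Jund, all 3 contralateral libraries lay below every injured library in TPM, at 27.9 TPM or less against 37.1 TPM or more. The ratio of means was log2 0.63 in TPM and 0.38 in CPM. With library 13 the fitted difference in counts was log2 0.39 (SE 0.30, FDR = 0.418), and without it log2 1.17 with FDR = 5.34e-05, a call. In library 13 the 10 most abundant genes held 42.5% of counts, against 16.6% to 29.8% in the others, and mitochondrial genes 0.914%, against 3.65% to 8.68%. The part of these features in the level of Jund was not tested. In CPM the groups did not overlap for 8 of the 10 genes, whereas injured libraries lay above all contralateral ones for 18.6% of genes tested. Egr1 had overlapping groups here too (log2 0.57, SE 0.39, FDR = 0.337).

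Between injured knees at day 7 and at day 1, 4 of 10 genes were called higher at day 7 and none lower, beside 9.04% and 6.38% of all genes tested. In CPM the groups of these 4 did not overlap, which held for 22.8% of all genes tested, whereas in TPM the ranges of all 4 overlapped. Jund was higher by log2 1.16 (SE 0.13, FDR = 2.7e-05), Atf3 by 1.18 (SE 0.24, FDR = 0.00222), Jun by 0.86 (SE 0.16, FDR = 0.00176) and Fosl2 by 0.71 (SE 0.16, FDR = 0.00458). Fosl2 was no longer called without injured library 18 (log2 0.52, FDR = 0.027), as its change then fell short of 1.5-fold. Fosb and Ier3 were called without day 1 library 3 (log2 1.94 with FDR = 0.0154 and 1.39 with FDR = 0.0295), so that 1 library decided both. On the log2 scale Egr1 was −0.30 (SE 0.38), the only gene of the list with a negative fitted value here. Directions between time points depended on the scale. The ratio of mean TPM between these groups had a median of log2 −0.90 over all genes tested, whereas that of CPM had a median of −0.02, and only 5 of the 10 genes had a higher mean TPM at day 7, where 9 had a higher mean CPM. Of the 4 called genes, Fosl2 turned direction in TPM (log2 −0.25), Jun was level (0.01), and Jund (0.28) and Atf3 (0.18) stayed above 0. Relative to the median over all genes, the TPM ratios of Fosl2, Jun, Jund and Atf3 were log2 0.65, 0.90, 1.17 and 1.08, and that of Egr1 was −0.16.

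**Figure D3:**
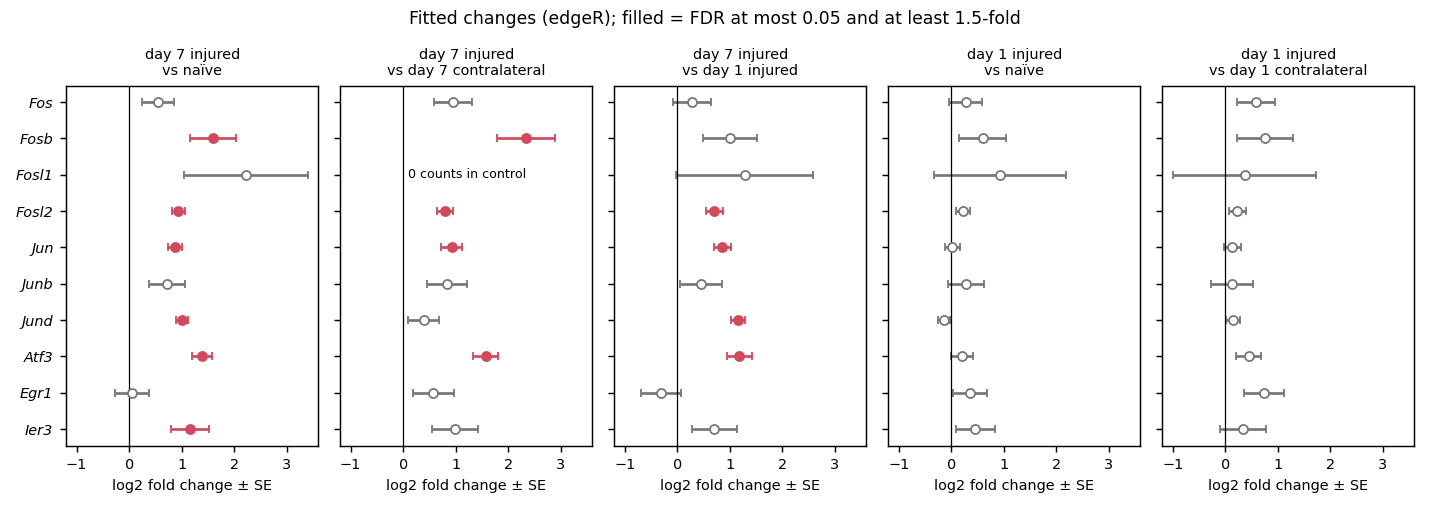
Fitted log2 fold changes with their SE (horizontal axes) for the 10 genes in 5 comparisons, 1 panel each. Filled points were called. None is filled in the day 1 panels, 6 are against naïve libraries at day 7, 4 against the contralateral knee and 4 against day 1; Fosl1 against the contralateral knee is left out because its counts there were 0.

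At day 1 none of the 10 genes was called by edgeR, against naïve (0% of all genes called higher and 0% lower) or against contralateral libraries (again 0% and 0%), and none had an unadjusted p under 0.05. DESeq2 and limma-voom called none either. The lowest unadjusted p of the list was 0.105 against naïve libraries, for Fosl2, and 0.073 against contralateral libraries, for Egr1. The difference of Fosl2 from naïve libraries was log2 0.23 with a 95% interval from −0.03 to 0.49, and that of Jun was 0.02 with an interval from −0.26 to 0.30. For Fos the interval was from −0.34 to 0.89 and for Egr1 from −0.28 to 0.99, so that a rise of 1.5-fold (log2 0.58) lies within the intervals of Fos and Egr1 and above those of Fosl2 and Jun. Day 1 injured library 3 was high in Fosb (17.6 CPM, with 4.69 and 4.85 in libraries 2 and 6), Ier3 (16.4 CPM, with 5.49 and 6.13) and Fos (25.7 CPM, with 13.99 and 10.7). Egr1 was high in libraries 2 and 3 (38.1 and 49.8 CPM) but not in library 6 (19.3 CPM). In CPM no gene of the list had day 1 injured libraries entirely above or below the naïve ones, where 1.07% of all genes tested lay above and 1.01% below. In TPM, all 10 genes had a higher mean at day 1 than in naïve libraries, and 3 of them (Fosl2, Jun and Atf3) lay entirely above, as did 34.9% of all genes tested, and the median ratio over all genes tested was log2 0.55 on that scale and 0.00 in CPM. Relative to that median the ratio of Fosl2 was log2 0.23, that of Jun 0.02, that of Atf3 0.32 and that of Jund −0.12.

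The control groups gave no call among these genes by edgeR, DESeq2 or limma-voom. None was called in day 1 contralateral libraries (0% of all genes higher, 0% lower) or in day 7 contralateral libraries (0% higher, 0% lower), and none between the contralateral groups, where 0.0141% of all genes were called higher at day 7 and 0.0047% lower. In each of these comparisons 1 of the 10 genes, Jund, had an unadjusted p under 0.05, beside 2.62%, 15.1% and 12.4% of all genes tested, and its FDR by edgeR was 1.00, 0.290 and 0.322. In fitted counts the sign of Jund differed, at log2 −0.29 for day 1 contralateral and 0.60 for day 7 contralateral against naïve libraries. The second value again holds library 13, and leaving out 1 library at a time gave log2 −0.16 to 0.92. In mean TPM the ratios were log2 0.02 and 0.08, both above 0. The median TPM ratio over all genes tested was log2 0.31 and −0.16 in these comparisons. Relative to these medians Jund was log2 −0.29 and 0.24, so that its sign differed there too.

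The change of the injury effect from day 1 to day 7 was tested as a difference of differences. None of the 10 genes was called by edgeR, beside 3.53% of all genes called higher and 0.245% lower, and 5 of the 10 had an unadjusted p under 0.05, as did 16.3% of all genes tested. Atf3 came nearest, with log2 1.12 (SE 0.34, FDR = 0.0815), and DESeq2 called it (log2 1.10, adjusted p = 0.0367). For Jun the difference was log2 0.79 (SE 0.27, FDR = 0.128) and for Fosl2 0.56 (SE 0.22, FDR = 0.199). Without contralateral library 13, Jun (log2 1.02, FDR = 0.0325) and Jund (log2 1.03, FDR = 0.00611) were called, and without day 1 injured library 3 Fosb was (log2 2.51, FDR = 0.045). A call at day 7 and none at day 1 thus does not show that the injury effects differ.

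Libraries of one condition varied together in part of the list. To describe this, the log2 CPM of each gene was set against the mean of its group, and these deviations were correlated over the 18 libraries, which share depth and dissection. Of 45 pairs of genes, 39 had a positive r and 18 an r above 0.5. The highest were Fosl1 with Junb (r = 0.90, Spearman's rho = 0.76), Junb with Ier3 (r = 0.86, rho = 0.79), Fos with Fosl1 (r = 0.83, rho = 0.83) and Fos with Junb (r = 0.81, rho = 0.59). Egr1 went with Fosb (r = 0.68) and not with Junb (r = 0.10) or Ier3 (r = −0.04). Jund ran apart from most of the list, with r = −0.29 to Fos, −0.36 to Egr1 and 0.57 to Jun (rho = −0.43, −0.39 and 0.45). Its deviations were widest in day 7 contralateral libraries, at 1.09 in library 13 and −0.63 and −0.46 in libraries 14 and 15. The pairs were not computed without library 13. The same library of a group was high in several genes at once. Naïve library 11 had the highest naïve value of Junb, Ier3, Fos and Fosl1 and the lowest of Egr1, day 1 contralateral library 5 and day 1 injured library 3 led their groups in Junb, Ier3, Fos and Fosl1, and day 7 injured library 18 led in all 10 genes. Junb reached 49.6 CPM in naïve library 11 and 56.3 CPM in contralateral library 5, within the range of day 7 injured libraries.

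**Figure D4:**
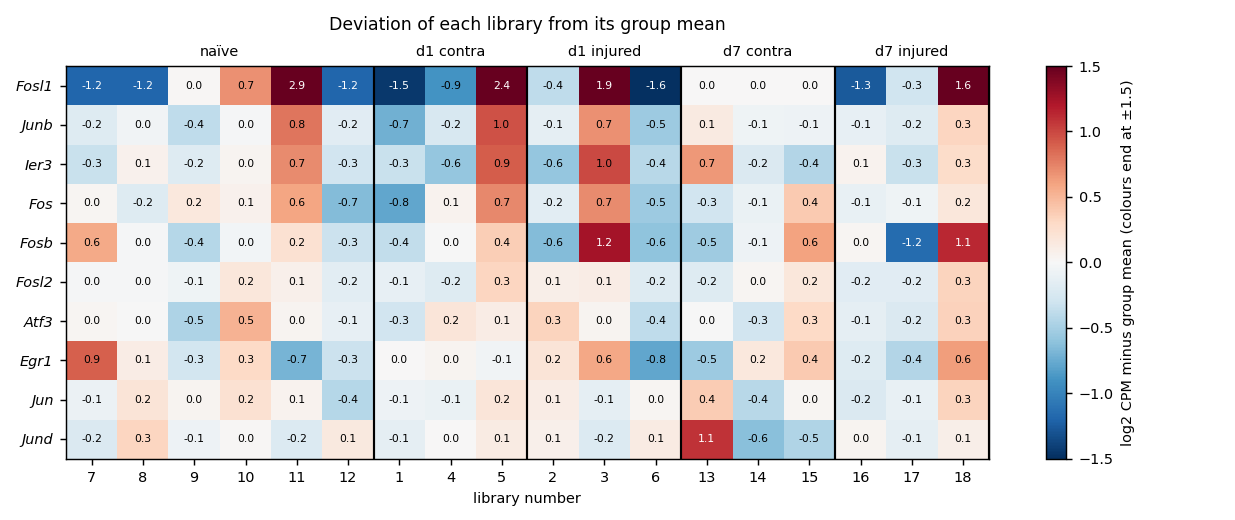
Deviation of log2 CPM from the mean of the group for the 10 genes (rows) in the 18 libraries (columns, by group), with values in the cells and colours from blue (below the mean) to red (above). Naïve library 11, day 1 contralateral library 5, day 1 injured library 3 and day 7 injured library 18 are red in Fosl1, Junb, Ier3 and Fos together, and day 7 contralateral library 13 stands out in Jund at 1.1.

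Of the other genes tested, the one whose deviations were most like those of Junb was Socs3, which encodes a feedback inhibitor of cytokine signalling (r = 0.98, rho = 0.98, n = 18 libraries), followed by Il13ra1, Il1r1, Mt2 and Mmp19 with r of at least 0.957; Junb was taken for this after its values were seen. Socs3 had 47.7 CPM in naïve library 11 and 13.4 to 24.4 CPM in the other naïve libraries, 53.4 CPM in contralateral library 5 with 10.5 and 17.6 in libraries 1 and 4, and 52.8 CPM in day 1 injured library 3 with 27.2 and 17.5 in libraries 2 and 6. The metal-binding protein gene Mt2 had 67.0 CPM in naïve library 11, 83.6 CPM in library 5 and 68.1 CPM in library 3, above the 17.2 to 25.9 CPM of day 7 injured libraries. Prg4, which encodes lubricin of the cartilage surface and synovium, had 1409 CPM in naïve library 11 and 373 to 873 CPM in the other naïve libraries. In the same libraries the summed level of 6 adipocyte markers was low, at 216 CPM in naïve library 11 (368 to 748 CPM in the others), 231 CPM in library 5 (386 and 511 CPM) and 176 CPM in library 3 (701 and 595 CPM). Sums of skeletal muscle markers were also the lowest of their groups in libraries 11, 5 and 3, at 2887, 4204 and 3198 CPM. Sums of synovial fibroblast markers were the highest of their groups in libraries 5 and 3 (2328 and 2519 CPM) but not in library 11 (2778 CPM). The part of dissection in this variation was not tested.

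By log2 CPM over all 18 libraries, the genes most like Fos were Layn, Prune2, Osmr, Baalc and Sod3, with r from 0.863 to 0.871. Such r hold the differences between groups, so that changes of genes picked this way follow in part from the choice. Osmr encodes a receptor subunit for oncostatin M, a cytokine that acts on joint tissue. It had 27.1 CPM at the naïve median and 49.5, 65.5 and 72.5 CPM in day 7 injured libraries. The genes most like Atf3 were Nr4a2 (r = 0.95), Adamts16, Medag, Lpar1 and Nab2 (r = 0.93), with rho of 0.91, 0.79, 0.77, 0.72 and 0.89 in that order. Nab2 encodes a corepressor that binds Egr factors, and rose by log2 0.90 (SE 0.15, FDR = 0.000269) between naïve and day 7 injured libraries, while Egr1 had the value given above. When group means were taken out, the gene most like Atf3 was Hspa1b (r = 0.84, rho = 0.79), a heat shock gene whose reads can be shared with its near copy Hspa1a (r = 0.80).

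Genes around AP-1 were read from lists grouped by known function. The lists were chosen with earlier results of these data known, so their counts describe them and do not test them. Of 19 other immediate early transcription factors tested, 7 were called higher and none lower in day 7 injured against naïve libraries, where 10.4% of all genes tested were called higher and 6.11% lower, with a median of log2 0.41 beside −0.04 for all genes. The orphan receptor genes Nr4a2 and Nr4a3 had the largest changes of the list, and the third of their family, Nr4a1, rose by log2 1.02 (SE 0.31, FDR = 0.0222). Nr4a2 had 5.96 CPM at the naïve median and 29.6, 28.1 and 70.2 CPM in day 7 injured libraries, a rise of log2 2.95 (SE 0.28, FDR = 1.76e-06). Nr4a3 rose by log2 2.72 (SE 0.51, FDR = 0.000978) with 23.3, 24.5 and 92.6 CPM, and Ier5l by 1.78 (SE 0.34, FDR = 0.00105). Egr2 (log2 0.08) and Egr3 (log2 0.28) were not called, nor were Ier2 (−0.05) and Myc (0.27). Egr4 was too low to be tested.

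A list of feedback inhibitors, RNA decay factors and other early stress genes had 5 of 24 genes called higher and none lower, where 10.4% of all genes tested were called higher and 6.11% lower. Socs3 rose by log2 1.43 (SE 0.47, FDR = 0.0329), the stress gene Gadd45b by 0.93 (SE 0.13) and the small GTPase gene Rhob by 0.78 (SE 0.10). Of 28 kinases and factors upstream of AP-1 the calls were Elk3 (log2 1.10, SE 0.13), a partner of serum response factor, and Mapk10 (log2 1.26, SE 0.43, FDR = 0.0367), a JNK gene at under 1 CPM in every library. The median of this list was log2 0.05, and that of 18 other zipper partners was 0.13. Of 15 heat shock genes none was called against naïve libraries by edgeR; Hspa5, Dnaja1 and Bag3 had an FDR under 0.05 with changes short of 1.5-fold.

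Among 23 genes tested that are attributed to AP-1 as targets, 6 were called higher and none lower in day 7 injured against naïve libraries, beside the same 10.4% and 6.11% of all genes tested, with a median of log2 0.55. Ptgs2, the inducible enzyme of prostaglandin synthesis, rose by log2 3.87 (SE 0.65, FDR = 0.000357). Its level was 2.13 CPM at the naïve median and 32.3, 27.2 and 66.9 CPM in day 7 injured libraries. Ccn1, a matrix signalling protein gene, rose by log2 1.37 (SE 0.29, FDR = 0.00262) and the growth factor gene Hbegf by 1.31 (SE 0.22, FDR = 0.000398). The collagenase gene Mmp13 rose by log2 0.88 (SE 0.22, FDR = 0.0077), and Il6 (log2 0.02) and Mmp9 (0.02) were not called. Against the contralateral knee, 7 of these 23 genes, 6 of the 19 transcription factors and 5 of the 24 feedback and stress genes were called higher and none lower, beside 9.33% and 3.23% of all genes tested. In the other lists, 3 of 28 kinases and factors (Mapk10, Elk3 and Mrtfb) and 1 of 15 heat shock genes (Bag3) were called higher and none lower, and of 18 zipper partners Atf7 was called higher (log2 0.62) and Nfe2 lower (log2 −0.64). At day 1 none of the 127 genes tested on these 6 lists was called by edgeR, and 4 of them against naïve and 9 against contralateral libraries had an unadjusted p under 0.05, beside 4.54% and 6.55% of all genes tested.

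**Figure D5:**
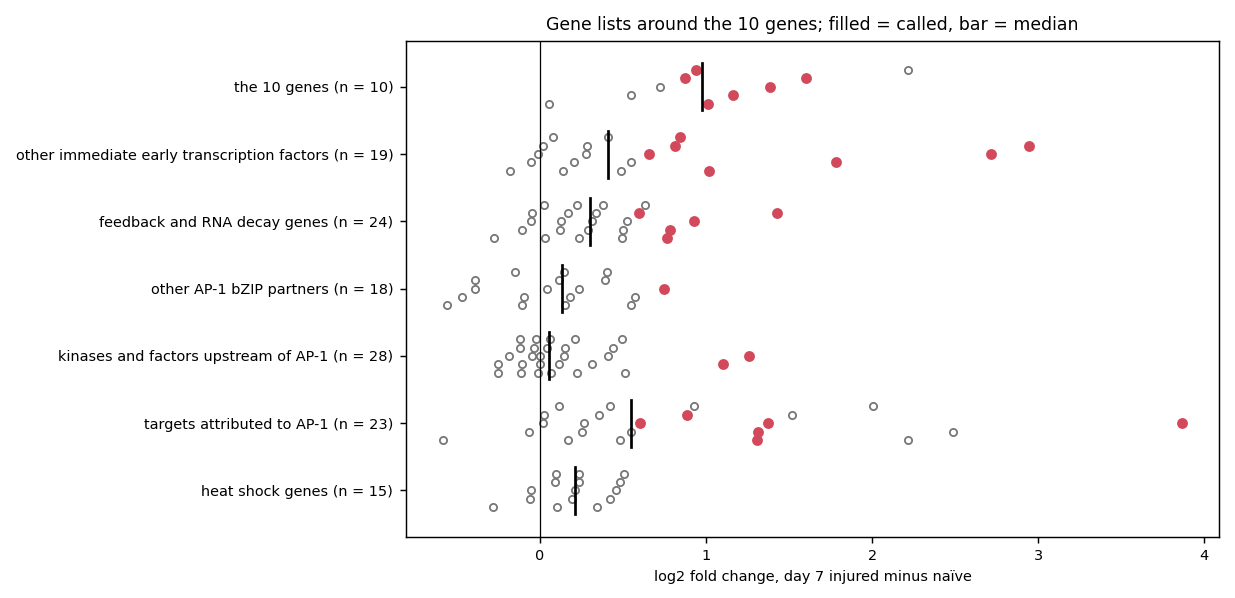
Day 7 injured minus naïve, as fitted log2 fold change (horizontal axis), for the 10 genes and for 6 lists of genes around them (rows), with 1 point per gene, filled points for genes called and a bar at the median of each list. The median of the 10 genes is 0.97, that of the targets 0.55 and that of the upstream kinases and factors 0.05, and Ptgs2 lies furthest right.

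Markers of other cell types moved with the day 7 injured libraries. All 12 chondrocyte markers were detected, led by Prg4, but the libraries also held RNA of blood, marrow, bone and muscle. At the mean of 18 libraries Hbb-bs of red cells had 15614 TPM and S100a8 of neutrophils 4107 TPM, compared with 412 TPM for Prg4. None of the markers listed was at 0 in every library. The 9 synovial fibroblast markers, led by Col3a1, summed to 22516, 22294 and 24930 CPM in day 7 injured libraries 16, 17 and 18, to between 1584 and 3122 CPM in naïve libraries, and to 1507, 1786 and 4045 CPM in day 7 contralateral libraries. Against naïve libraries 4 of the 9 were called higher. The median change of these 9 markers was log2 1.32 against naïve and 1.26 against contralateral libraries. The sum of 9 osteoblast and osteocyte markers, led by Col1a1, was 51772, 47712 and 55441 CPM in day 7 injured libraries, 9044 to 17463 CPM in naïve libraries and 53049, 16293 and 22515 CPM in contralateral libraries 13, 14 and 15, with 2 markers called higher and 2 lower against naïve libraries and none higher and 1 lower against contralateral ones. Unlike the sum, the median change of these 9 markers was below 0, at log2 −0.32 against naïve and −0.45 against contralateral libraries. Endothelial markers, led by Pecam1, had 4 of 7 called higher, osteoclast markers, led by Acp5, 1 of 7, and chondrocyte markers 3 of 12 higher and 1 lower. Macrophage markers, led by Lyz2, had none of 8 called in either direction. Over all genes tested 10.4% were called higher and 6.11% lower, and counts of 1 in a list are near these shares. Called lower were 5 of 8 erythroid markers, 2 of 9 neutrophil and marrow myeloid markers, 1 of 9 skeletal muscle markers, led by Acta1, and 3 of 6 adipocyte markers, led by Cfd. Day 1 injured libraries had 2328 to 2519 CPM of the synovial fibroblast markers. The part of these cells in the levels of the 10 genes was not tested.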

How the data were processed

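Estimated counts and TPM per transcript were deposited for each of the 18 libraries; the authors trimmed reads with Trimmomatic and quantified them with Kallisto on mouse transcripts, and a strand setting is not given in the sources used here. The authors' TPM values are normalised for effective length and library. The submitters' notes also name DESeq2. Of 137436 transcripts, 135107 (98.3%) matched GENCODE, and those left out held 0.667% to 3.90% of counts. Counts were summed per gene and rounded. The main test was the edgeR 4.0.16 quasi-likelihood test (R 4.3.3) with filterByExpr, TMM and Benjamini-Hochberg adjustment. Comparisons without day 7 contralateral libraries used 15 libraries (21129 genes) and the others 18 (21262 genes). DESeq2 1.42.0, limma-voom (limma 3.58.1) and other settings were alternatives. CPM for display were TMM-scaled, and deviations used log2 CPM with a prior count of 2. Intervals of 95% came from the SE. TPM compared genes and CPM compared groups, and ranges and ratios of TPM between groups were given beside CPM.

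Named genes were the 10 genes, the 3 called genes of largest change per list, the 5 genes most like Fos and Atf3, and the leading marker per cell type; others were chosen after their values were seen. The members and lists were chosen with earlier results of these data known. The study's block for mouse pools could not be repeated, since the labels do not name the pools. The authors state that 1 library was removed and do not name it. One gene's result is not reported here.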

Additional observations from a re-analysis of the deposited data

Results flagged for a closer look

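Of the 10 genes, 3 had a naïve library far from the others of its group of 6, in each case library 11. A gap to the nearest library above 0.625 of the group's range (Dixon's 95% value for 6 samples) marked these, a limit that chance passes in about 1 in 20 groups, and 10 groups were examined; the 3 values come from 1 library and are not independent. Fosl1, the late-induced Fos subunit, had 1.23 CPM in library 11 and 0 to 0.210 CPM in the other naïve libraries. For Junb the values were 49.6 CPM and 21.9 to 28.2 CPM. For Ier3 they were 10.9 CPM and 5.24 to 6.96 CPM. Adipocyte markers summed to 216 CPM in library 11 and 368 to 748 CPM in the others. Skeletal muscle markers summed to 2887 CPM in library 11 and 4565 to 9784 CPM in the others. The part of these cells in the 3 values was not tested.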

How the results depend on the processing

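Calls of Fosl2, Jun, Jund and Atf3 in day 7 injured against naïve libraries held under every alternative run: size factors of DESeq2, the DESeq2 test, limma-voom, no filter, all 18 libraries, both other FDR thresholds, a length offset, coding transcripts only, and leaving out each library. At an FDR of 0.01 Fosb and Ier3 were lost, which left 4 genes. For the change of injury effect, the count of 0 called genes became 1 with the DESeq2 test and ranged from 0 to 2 over left-out libraries. The ratio of the day 7 injured to the naïve mean was 1.16 in TPM and 1.45 in CPM for Fos, and 1.63 and 1.99 for Jund. Of 1490 alternatives for single genes, 11 gained and 8 lost a call, none of these count-based alternatives turned a called value (Fosl2 turned between days 1 and 7 in TPM), and 61 turned the sign of an uncalled one. The causes of these differences were not tested. No paired analysis was possible because the labels do not say which knees or pools share mice and the numbers differ between groups. Fosl1 had 0 to 59 counts in a library, which limits its values.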
